A study of Mus musculus with 13 samples.

Results

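The adult globin genes Hba-a1, Hba-a2, Hbb-bs and Hbb-bt, together with Alas2, were followed as transcripts of red blood cells in gastrocnemius muscle. These 5 genes, of 21868 in the table of normalized counts, were chosen by name from their measured levels per mouse across the 3 treatment groups. Their levels and group differences are therefore given as a description, with no test between groups. All 5 passed the filter for a mean of at least 10 normalized counts over all mice, which 12303 genes passed. The 5 genes varied together. They were low in 3 of the 5 semaglutide-treated mice, where the summed globin counts were 8.40 to 35.8-fold below the vehicle mean, near or above the vehicle level in the other 2, and above every vehicle-treated mouse in all 3 mice given semaglutide with the ketone ester.

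RNA from whole gastrocnemius, a calf muscle made largely of fast fibres, was sequenced in 13 male C57BL/6 mice, and the study's figure legends name the C57BL/6N substrain for RNA sequencing. Every mouse, controls included, was 7 weeks old at the start, spent 1 week acclimatizing, was fed a diet with 60 kcal% fat for 15 to 17 weeks to induce obesity, and was then moved to standard chow for the 3 weeks of treatment. The groups were 5 mice on vehicle (phosphate-buffered saline) with placebo, 5 mice on semaglutide, an agonist of the GLP-1 receptor, at 30 nM/kg/day intraperitoneally with placebo, and 3 mice on the same semaglutide dose with a ketone ester in drinking water at 0.114 g/mL. Mice carry the numbers of the labels: vehicle 1 to 5, semaglutide 13 to 17, and semaglutide + ketone ester 19, 21 and 22. Whether the muscles were perfused or rinsed of blood was not given in the sources used here.

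Haemoglobin is a tetramer of alpha-like and beta-like chains, each holding a haem group that binds oxygen. Erythroid precursors in the bone marrow make it in bulk, and the youngest red cells, the reticulocytes, enter the blood with no nucleus but with much of their globin mRNA left. ALAS2 is the erythroid form of 5-aminolevulinate synthase, the enzyme that starts haem synthesis in red cell precursors, whereas ALAS1 does so in other tissues. Muscle is crossed by many capillaries, so whole-muscle RNA holds some blood RNA. In such bulk samples, fewer red cells and less globin mRNA per cell cannot be told apart.

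The gene pairs are near copies, which bears on how their reads could be told apart. In the GENCODE annotation of GRCm38 (mm10), the alpha globin genes lie on the plus strand of chromosome 11, Hba-a1 at chr11:32283511-32284465 and Hba-a2 at chr11:32296489-32297298. The beta globin genes lie on the minus strand of chromosome 7, Hbb-bs at chr7:103826534-103828096 and Hbb-bt at chr7:103812524-103813996. Alas2 lies on the X chromosome at chrX:150547375-150570638. Each globin transcript has 3 exons, all with coding sequence, while that of Alas2 has 11 exons, of which 10 hold coding sequence. Counted from 1 at the first base of the start codon, the 426 coding bases of Hba-a1 and Hba-a2 differ by 1 base (C381T, from Hba-a1 to Hba-a2), an identity of 99.77%. The 441 coding bases of Hbb-bs and Hbb-bt also differ by 1 base (C417T, from Hbb-bs to Hbb-bt), an identity of 99.77%. Both lie at the third base of a codon and leave the encoded amino acid as it is. The coding sequence around these positions is shown 5′ to 3′, as the transcript reads, with the differing base in capitals, because a coding read that misses this base fits both genes of a pair.
Hba-a1: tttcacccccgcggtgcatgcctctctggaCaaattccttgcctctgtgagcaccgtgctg
Hba-a2: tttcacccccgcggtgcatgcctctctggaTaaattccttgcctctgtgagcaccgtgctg
Hbb-bs: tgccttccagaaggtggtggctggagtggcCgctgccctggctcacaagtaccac
Hbb-bt: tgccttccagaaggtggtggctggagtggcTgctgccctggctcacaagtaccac
Of all stretches of 59 bases, the read length, in each transcript, 65.68% of those of Hba-a1, 84.88% of Hba-a2, 65.26% of Hbb-bs and 57.67% of Hbb-bt also occur in the partner gene, against 0 for Alas2. These shares are of single stretches. The reads were paired, and a pair can be told apart if either mate holds a base that differs, so fewer pairs than single reads fit both genes. The share of such pairs was not computed. The split between the genes of a pair is still uncertain, and how the authors' counting assigned shared reads was not given in the sources used here. The sums of the alpha rows and of the beta rows do not depend on that split if each shared read was counted once. If shared reads were dropped or counted for both genes, the sums and the alpha to beta ratios below depend on it.

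The 150 bases before each RefSeq start (GRCm38.p6) are shown as well, on each gene's own strand and 5′ to 3′. RefSeq starts differ from the ends of the GENCODE spans above, so the windows of Hba-a1 and Hbb-bs lie wholly and the others partly within those spans. Capitals mark 4 short motifs on either strand. CACCC is a box to which KLF1 binds in erythroid genes, and the motif CCAAT is found in many promoters. The motif ATATAA is a form of the TATA box, where transcription starts are set. The motif AGATAA is a form of the site recognised by GATA1, the erythroid regulator.
Hba-a1 (chr11:32283522-32283671, plus strand): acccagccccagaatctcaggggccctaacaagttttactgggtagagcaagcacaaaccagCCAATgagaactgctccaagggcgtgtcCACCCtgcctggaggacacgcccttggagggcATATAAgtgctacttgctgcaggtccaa
Hba-a2 (chr11:32296342-32296491, plus strand): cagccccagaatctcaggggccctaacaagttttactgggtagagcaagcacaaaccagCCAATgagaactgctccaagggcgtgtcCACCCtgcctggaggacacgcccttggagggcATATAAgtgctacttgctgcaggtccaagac
Hbb-bs (chr7:103827929-103828078, minus strand): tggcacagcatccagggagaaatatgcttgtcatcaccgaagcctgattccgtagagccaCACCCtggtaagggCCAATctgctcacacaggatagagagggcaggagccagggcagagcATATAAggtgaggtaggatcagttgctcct
Hbb-bt (chr7:103813924-103814073, minus strand): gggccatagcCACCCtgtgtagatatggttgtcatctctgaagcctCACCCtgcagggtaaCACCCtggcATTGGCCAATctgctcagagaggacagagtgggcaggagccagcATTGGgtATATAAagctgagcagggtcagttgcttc
Alas2 (chrX:150547267-150547416, plus strand): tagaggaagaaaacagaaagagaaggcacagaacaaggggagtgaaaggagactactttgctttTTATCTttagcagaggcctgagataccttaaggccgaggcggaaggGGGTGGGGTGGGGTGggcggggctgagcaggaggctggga
The alpha globin windows share an unbroken run of 147 bases. All 4 globin windows hold ATATAA, beginning 28 to 31 bases before the start, and all 4 hold CCAAT, while Alas2 holds neither. CACCC occurs in all 5 windows, with 3 matches in Hbb-bt and 3 adjacent matches on the opposite strand in Alas2, and AGATAA occurs in 1, that of Alas2, on the opposite strand. Of 32851 RefSeq promoter windows of the same length, ATATAA occurs in 5.354%, AGATAA in 5.647%, CCAAT in 24.5% and CACCC in 37.43%. CCAAT and its reverse touch in Hbb-bt, where they form 1 run. These matches describe the letters only.

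Between 15319471 and 23498162 reads per mouse were counted on genes, so that 3 reads made up 1.28e-05% to 1.96e-05% of a library. The libraries were muscle by their markers. Acta1, Ckm and Myh4 were present in every mouse, and 10 skeletal muscle markers summed to between 1591690 and 3753790 normalized counts. On the first principal component of the 12303 genes, which held 38.1% of the variance, semaglutide mouse 13 scored -9.12, apart from the other semaglutide-treated mice (31.8 to 52.5) and nearer the vehicle-treated mice (-24.5 to -12.9). The mean globin differences from the semaglutide group and the counts of listed genes called are therefore also given without mouse 13. Other values are given with it, such as group means and the differences of single genes. The title of every library carried the same prefix before the mouse number, which does not say whether the libraries were prepared or sequenced together. Nothing in the labels says more of the mice than their numbers, and the p-values below measure the spread between these mice.

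Hba-a1, an alpha globin gene, had normalized counts of 509, 675, 433, 435 and 752 in vehicle mice 1 to 5. In semaglutide mice 13 to 17 they were 986, 9.02, 419, 10.7 and 79.8, and in semaglutide + ketone ester mice 19, 21 and 22 they were 860, 1457 and 1606. The semaglutide-treated mice fell into high values (mice 13 and 15) and low values (14, 16 and 17), the highest being 109 times the lowest. The 3 mice with the ketone ester lay above all 5 vehicle-treated mice, by a ratio of group means of 2.33.

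Hba-a2, the neighbouring alpha globin gene, followed the same order of groups at a lower level. Its counts were 324, 339, 252, 284 and 398 under vehicle, 542, 10.1, 273, 13.6 and 30.6 under semaglutide, and 527, 798 and 947 under semaglutide + ketone ester. Mouse 13 exceeded every vehicle-treated mouse and mouse 19, whereas mouse 15 lay within the vehicle range.

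Hbb-bs, the major adult beta globin gene here, had the highest counts of the 5 genes in every group. Its values were 742, 894, 556, 634 and 949 under vehicle, 1289, 28.2, 681, 25.2 and 85.8 under semaglutide, and 1155, 1864 and 2482 under semaglutide + ketone ester. Again mice 14, 16 and 17 were low, mouse 15 lay within the vehicle range, and the mice with the ketone ester lay above it.

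Hbb-bt, the minor adult beta globin gene here, had counts of 124, 160, 103, 136 and 170 under vehicle. Under semaglutide they were 280, 5.63, 118, 0 and 14.9, and under semaglutide + ketone ester 245, 377 and 433. In mouse 16 no read fell on Hbb-bt, which places it at least 47.6-fold lower than the vehicle mean at a floor of 3 reads in that library.

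Alas2 was the least abundant of the 5 genes, at 30.9, 27.7, 12.4, 18.8 and 22.1 normalized counts under vehicle. Under semaglutide it had 50.3, 0, 14.4, 0.971 and 1.49, which in mice 14, 16 and 17 stand for 0, 1 and 2 reads. Under semaglutide + ketone ester it had 61.9, 89.4 and 91.3. The 0 of 15459667 reads in mouse 14 allow a share of up to 1.94e-05% of reads, at least 6.62-fold lower than the vehicle mean in normalized counts. Alas2 was the member whose ketone ester values, from 61.9, cleared the highest semaglutide value, the 50.3 of mouse 13.

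**Figure D1:**
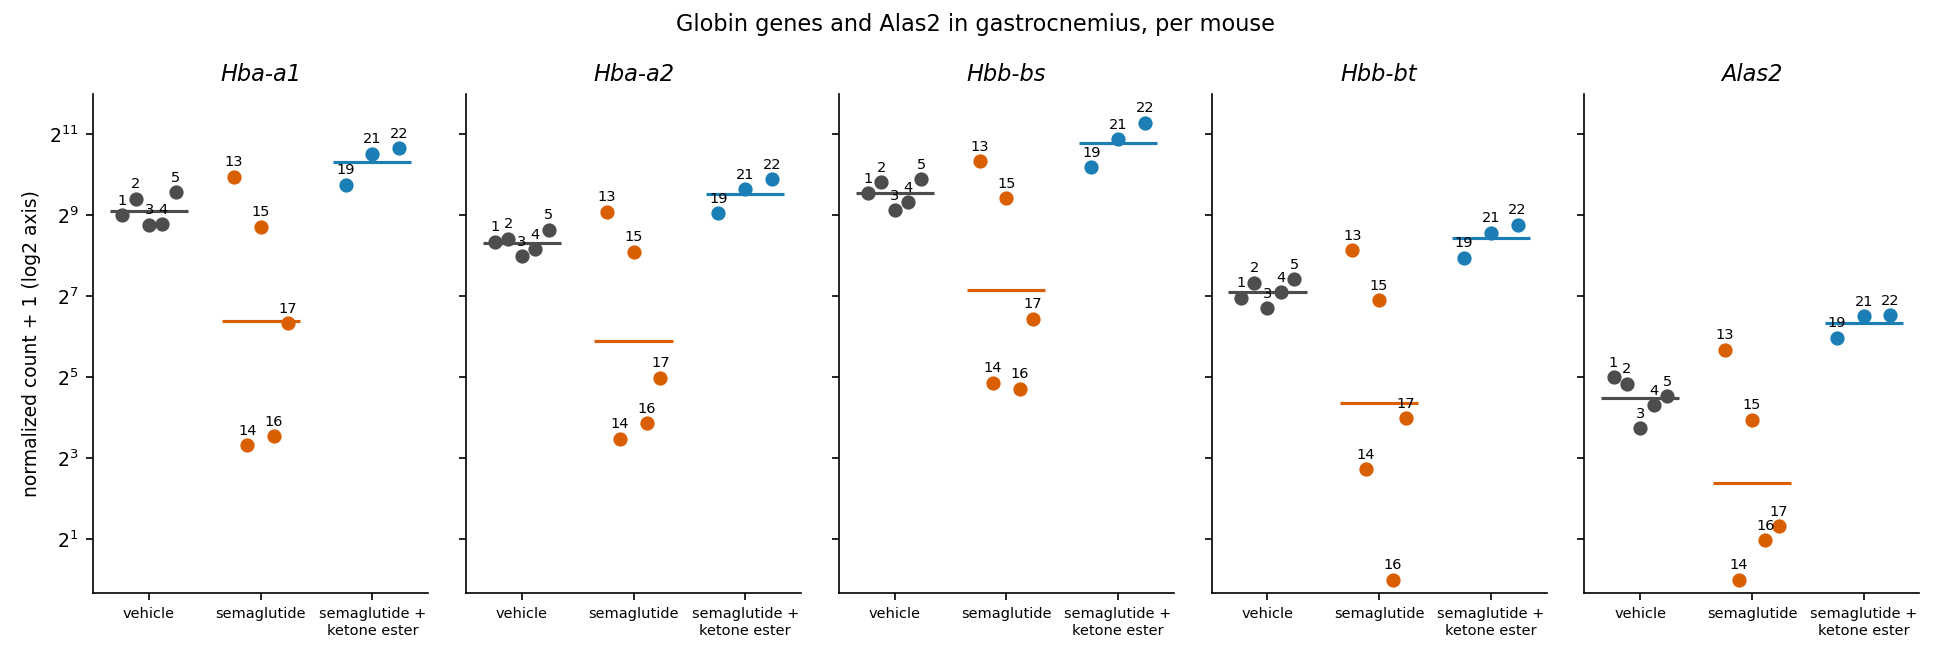
Normalized count + 1 on a log2 axis for each of the 5 genes, by treatment group; each point is a mouse with its number, and bars are means of the log2 values. Semaglutide mice 14, 16 and 17 lie far below the vehicle-treated mice in every panel, mice 13 and 15 do not, and mice 19, 21 and 22 lie above every vehicle-treated mouse.

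Summed over the 4 globin genes, vehicle-treated mice had 1774 ± 389 normalized counts (SD, n = 5). Semaglutide-treated mice had 980 ± 1329 (SD, n = 5), and the ketone ester mice had 4250 ± 1356 (SD, n = 3). As a share of all reads on genes, these sums made up 0.00917% ± 0.00201 (SD, n = 5), 0.00547% ± 0.00738 (SD, n = 5) and 0.0209% ± 0.00622 (SD, n = 3). The SD of the semaglutide group exceeded its mean. Against the vehicle mean, the sum was 1.75 times as high in mouse 13 and 0.840 times as high in mouse 15. It was 8.40-fold lower in mouse 17, 33.5-fold lower in mouse 14 and 35.8-fold lower in mouse 16. These 3 low mice had 283, 47 and 51 globin reads, against 1086 to 1949 in the vehicle-treated mice, and counting error was small beside the gap. The share of reads had a 95% Wilson interval of 0.000229% to 0.000404% in mouse 14 and 0.000253% to 0.000438% in mouse 16, while the lowest vehicle-treated mouse had 0.00655% to 0.00738%. Intervals and floors cover counting error only. Mice 16 and 14 had the fewest reads on genes of all 13, at 15319471 and 15459667, next to 15621189 in vehicle mouse 3, whereas mouse 17 had the most, at 23498162. The part of depth in these values was not tested.

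Per kilobase of transcript, the vehicle levels were 1202 ± 266 normalized counts for Hbb-bs, 802 ± 208 for Hba-a1, 577 ± 100 for Hba-a2, 197 ± 38.7 for Hbb-bt and 11.0 ± 3.59 for Alas2 (SD, n = 5 each). The ranges of Hbb-bs and Hba-a1 overlapped, as did those of Hba-a1 and Hba-a2. Hbb-bt, with 242 at most, lay below the other globin genes, and Alas2, with 15.2 at most, lay below all of them. The order of the means was the same under semaglutide + ketone ester, at 2920, 1870, 1367, 500 and 39.7, each per kilobase. The order within each globin pair rests on how shared reads were assigned, which was not given. It also rests on the GENCODE transcript lengths, such as 699 bases for Hba-a1 and 554 for Hba-a2.

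The group differences were taken from the limma fit over all 12303 genes, with 1 added to each normalized count before taking log2, so that differences of low counts are understated. Between semaglutide and vehicle they were -2.72 (standard error 1.01) for Hba-a1, -2.41 (0.86) for Hba-a2, -2.38 (0.88) for Hbb-bs, -2.75 (1.10) for Hbb-bt and -2.10 (0.83) for Alas2. A mean over log2 values weights the lowest mice heavily. The log2 ratio of the group means, where mouse 13 weighs most, was smaller at -0.90, -0.88, -0.84, -0.73 and -0.74 in the same order, an alternative chosen after seeing the data. The mean log2 difference of the 4 globin genes, -2.56, became -3.42 without mouse 13, -3.15 without mouse 15, -1.98 without mouse 14 and -1.84 without mouse 16. No member had every semaglutide-treated mouse below every vehicle-treated mouse (0 of 5), a pattern that 7.45% of all genes tested showed. By limma, 12.5% of all genes tested were higher and 13.9% lower under semaglutide than vehicle with an adjusted p under 0.05, with a median difference over all genes of 0.00 (-0.0029).

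Between semaglutide + ketone ester and semaglutide, the log2 differences were 3.93 (standard error 1.17) for Hba-a1, 3.62 (0.99) for Hba-a2, 3.62 (1.02) for Hbb-bs, 4.07 (1.27) for Hbb-bt and 3.95 (0.96) for Alas2. The log2 ratios of group means were 2.12, 2.12, 2.12, 2.07 and 2.59. Every ketone ester mouse lay above every semaglutide-treated mouse for 1 of the 5 genes, Alas2, against 9.96% of all genes tested. For the 4 globin genes, mouse 13 was the semaglutide-treated mouse that exceeded mouse 19, and without mouse 13 their mean log2 difference went from 3.81 to 4.67. By limma, 10.0% of all genes tested were higher and 10.7% lower in this comparison.

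Between semaglutide + ketone ester and vehicle, all 5 genes were higher in every ketone ester mouse than in every vehicle-treated mouse, against 5.45% of all genes tested. The rule that chose the members used these values, so nothing is read from that count. The log2 differences were 1.21 (standard error 1.17) for Hba-a1, 1.22 (0.99) for Hba-a2, 1.24 (1.02) for Hbb-bs, 1.32 (1.27) for Hbb-bt and 1.85 (0.96) for Alas2. Their standard errors are wide because the fit shares 1 spread per gene over the 3 groups, the scattered semaglutide group included. Ratios of group means were 2.33, 2.37, 2.43, 2.54 and 3.61. Leaving out each mouse in turn kept the mean of the 4 globin genes between 1.05 and 1.51 on the log2 scale. By limma, 0.366% of all genes tested, in either direction, passed in this comparison.
All 3 comparisons share their groups, and so a low or high group enters more than 1 of them.

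**Figure D2:**
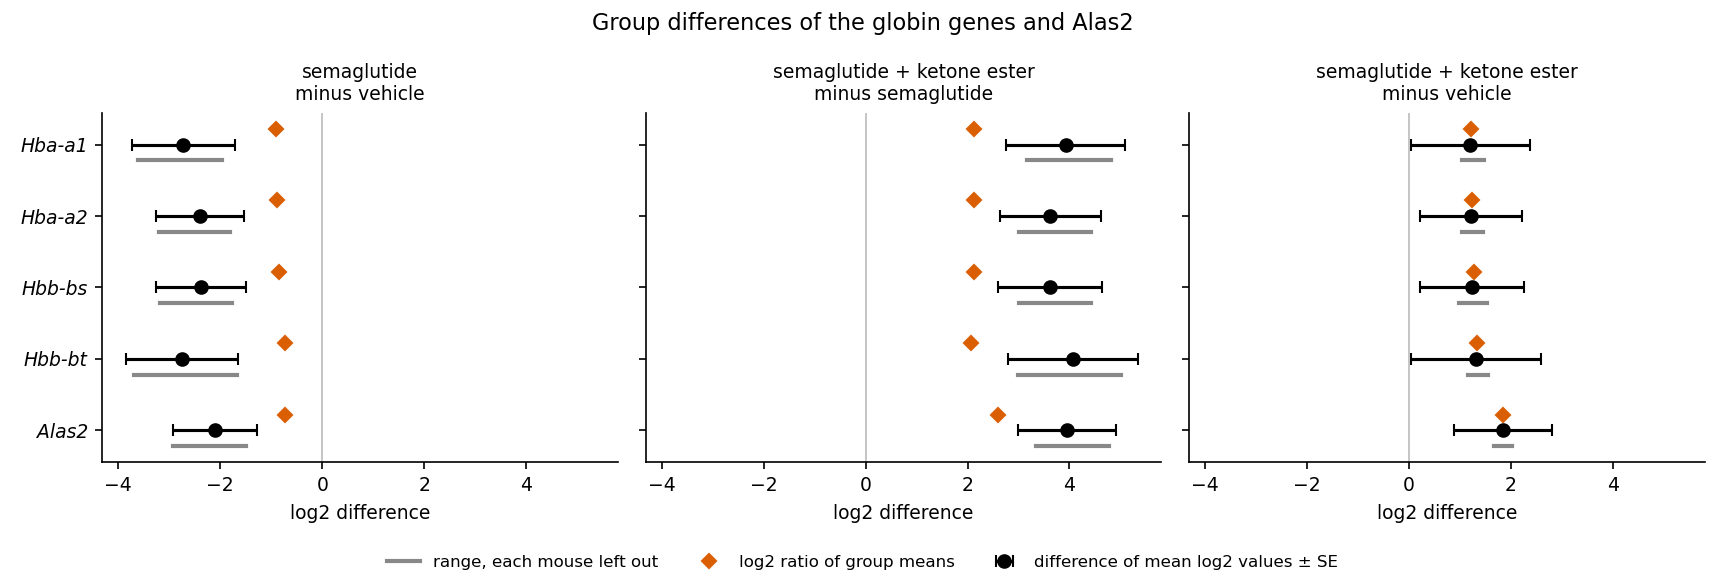
Log2 differences of the 5 genes for the 3 pairs of groups; black points are differences of mean log2 values with standard errors, grey lines their range when each mouse is left out, and orange diamonds log2 ratios of group means. The semaglutide values move from about -2.72 to -0.90 for Hba-a1 with the choice of mean, while those of semaglutide + ketone ester minus vehicle lie near 1.21 and 1.22 by either.

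While the total varied, the make-up of the globin reads was narrow. In the 10 mice with at least 1000 globin reads, alpha to beta ratios of reads lay between 0.866 and 1.04, with a mean of 0.964 ± 0.0587 (SD, n = 10). In these mice Hba-a1 took 60.5% to 66.5% of alpha globin reads and Hbb-bs took 82.1% to 85.7% of beta globin reads. Mouse 13, at 0.974, 64.6% and 82.1%, lay within the vehicle range for the first pair of measures and just below the lowest vehicle-treated mouse, at 82.3%, for the Hbb-bs share. The ratio of mouse 15, 0.866 (95% interval 0.777 to 0.966), lay below every vehicle-treated mouse (0.932 to 1.04). Its Hba-a1 and Hbb-bs shares, 60.5% and 85.3%, lay within the vehicle range. Ketone ester mouse 22, at 0.876 (0.826 to 0.929), also had a ratio below every vehicle-treated mouse. Mice 14, 16 and 17 had alpha to beta ratios of 0.567, 0.962 and 1.10, with 95% intervals of 0.293 to 1.06, 0.533 to 1.73 and 0.862 to 1.39, so their ratios could not be told from the others at this depth. All 26 beta globin reads of mouse 16 were on Hbb-bs (exact 95% interval from 86.8%). Hba-a1 in mouse 17, with 72.3% of alpha globin reads (64.3% to 79.3%), lay above the range of the 10 mice with its interval reaching into it.

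Alas2 varied more against the globins than these shares did, with 14.8 ± 4.57 Alas2 reads per 1000 globin reads (SD, n = 10) in the same 10 mice. Per 1000 globin reads, there were 9.21 to 18.2 Alas2 reads in the vehicle-treated mice, with a mean of 12.6 ± 3.59 (SD, n = 5), and 16.7 to 22.2 in the ketone ester mice, with a mean of 19.6 ± 2.77 (SD, n = 3). These ranges overlapped. Mouse 13 had 16.2 (95% interval 12.1 to 21.3) and mouse 15 had 9.69 (5.14 to 16.6). In mice 14, 16 and 17, with 0 to 2 Alas2 reads, the intervals reached 81.6, 114 and 25.8, and no difference in this ratio was detectable.

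**Figure D3:**
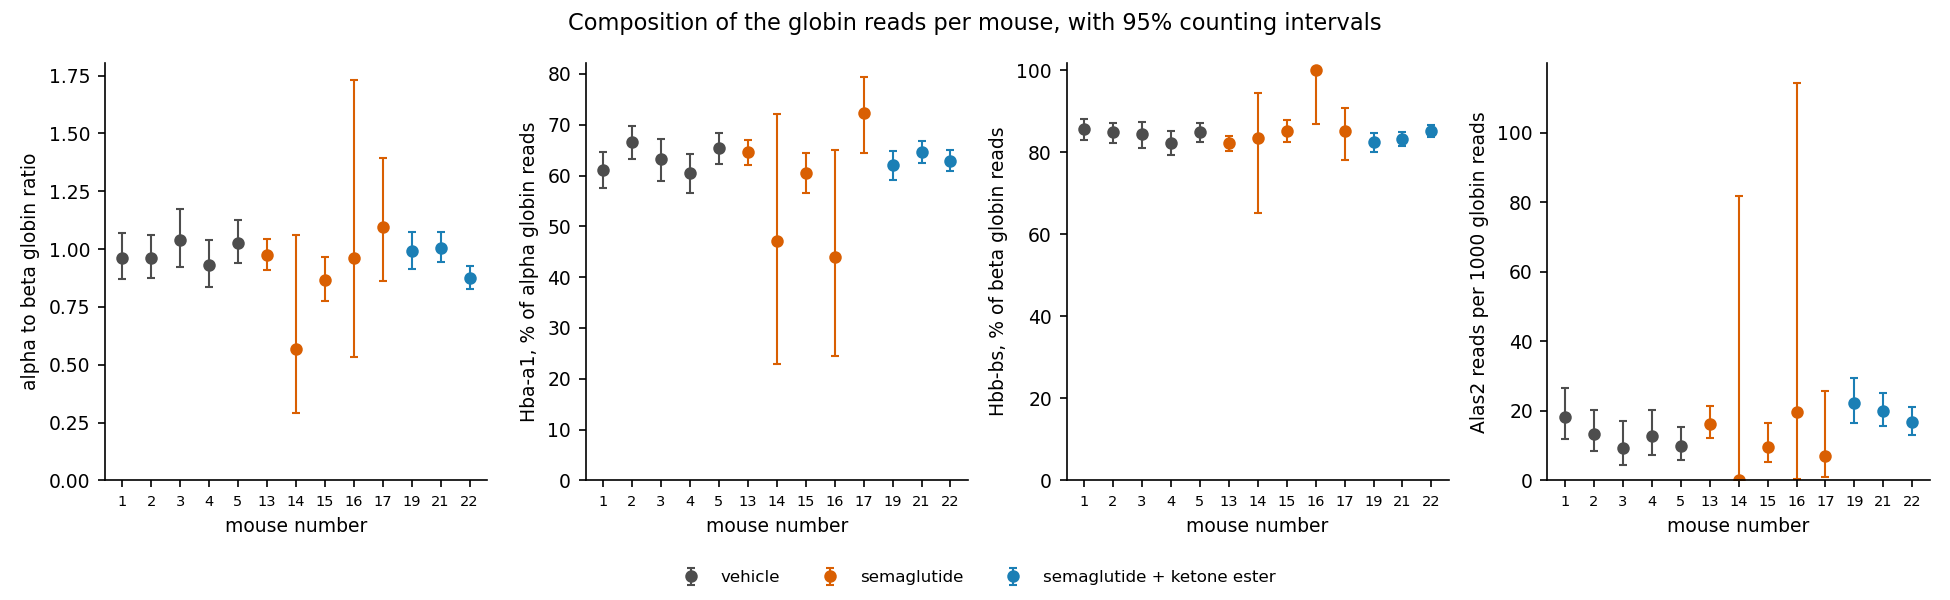
Alpha to beta globin ratio, Hba-a1 share of alpha globin reads, Hbb-bs share of beta globin reads, and Alas2 reads per 1000 globin reads, for each mouse by number; bars are 95% counting intervals. In the 10 mice with at least 1000 globin reads the ratio stays between 0.866 and 1.04, while the intervals of mice 14 and 16 are wide.

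Across mice, the log2 values of the 4 globin genes followed each other with Pearson's r from 0.96 to 1.00 over 13 mice for the 6 pairs, and the r of Alas2 with their mean was 0.96 over 13 mice. Without mice 14 and 16, the 2 farthest from the median, it was 0.97 (n = 11), and in the 8 vehicle and ketone ester mice it was 0.94. The last value includes the gap between the vehicle and ketone ester groups, which was in view when the members were chosen. Genes share depth and scaling within a library, and near-identical genes share reads, so the values are a description.

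The remaining globin genes did not take part. The embryonic genes Hba-x, Hbb-y, Hbb-bh1 and Hbb-bh2 and the theta genes Hbq1a and Hbq1b had 0 reads in all 13 mice, and Ngb, neuroglobin, averaged 0.525 normalized counts. Hbb-bh0 had no row and was not analysed here. Mb, which encodes myoglobin, the oxygen store of muscle fibres, went its own way. Its counts were 28026 to 50637 under vehicle, 8329, 13884, 6806, 8664 and 7661 in semaglutide mice 13 to 17, and 21354 to 37766 under semaglutide + ketone ester. It fell under semaglutide by 2.15 on the log2 scale (standard error 0.22, limma adjusted p = 3.3e-05) and was higher by 1.64 with the ketone ester than with semaglutide alone (standard error 0.25, limma adjusted p = 0.0010). All 5 semaglutide-treated mice lay below all vehicle-treated mice for Mb, mice 13 and 15 included, in which the red cell globins were not low. Cygb, cytoglobin, an oxygen-binding globin of connective tissue cells, did not pass in any comparison, with 239 to 289 normalized counts under vehicle and 210 to 327 under semaglutide.

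Other genes of the red cell were looked up in lists fixed by name, with earlier results of these data known. Many genes that define red cell precursors were at or near 0 in every group. Of the 15 genes of the red cell membrane and skeleton, 4 (Rhag, Rhd, Kel and Cldn13) had 0 reads in all mice and 8, these included, averaged under 1 normalized count, among them Slc4a1, the band 3 anion exchanger, at 0.454. Of 17 erythroid regulator and maturation genes in the table, 7 averaged under 1. Gata1, the master regulator of the erythroid line, averaged 0.260 and Klf1, the activator of adult beta globin, 1.08. Trim58, Trim10 and Tspo2, which act in late red cell maturation, had 0 reads in all mice. Ahsp, which encodes the chaperone of free alpha globin, had no row and was not analysed here. For genes averaging under 1 normalized count, a drop of any size was not detectable at this depth.

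Some red cell genes are also made by other cells of muscle, such as Sptb and Ank1, a spectrin and an ankyrin gene, by fibres and Aqp1, a water channel, by endothelium, and these 3 lay above the filter. In the membrane and skeleton list, 5 genes were tested and 1 passed in each comparison with semaglutide, beside 26.5% and 20.7% of all genes tested. That gene, Sptb, the beta chain of spectrin, rose under semaglutide by 0.40 on the log2 scale (standard error 0.10, limma adjusted p = 0.012). It was lower by -0.56 with the ketone ester than with semaglutide alone (standard error 0.12, limma adjusted p = 0.0053). Ank1, Aqp1, Gypc and Dmtn did not pass. The median log2 difference of the 5 tested genes was -0.04 for semaglutide minus vehicle and -0.32 for semaglutide + ketone ester minus semaglutide, beside medians of 0.00 over all genes (-0.0029 and -2.0e-04). The Sptb differences had the opposite sign to those of the globin genes, as did those of Dmtn (0.35 and -0.49). Those of Ank1 had the same sign as the globin genes (-0.70 and 0.68), without passing (limma adjusted p = 0.093 and 0.17). Ank1 had 16058 normalized counts in mouse 13 and 7489, 5109, 3403 and 5145 in mice 14 to 17, against 8808 to 12099 under vehicle. Those of Gypc (-0.06 and -0.32) and Aqp1 (-0.04 and -0.05) were negative in both comparisons.

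Of 7 tested erythroid regulator and maturation genes, 2 passed in both comparisons with semaglutide, near the share over all genes tested (26.5% and 20.7% in either direction). Both were lower under semaglutide than vehicle and higher with the ketone ester than with semaglutide alone. Bpgm makes bisphosphoglycerate mutase, which in red cells produces 2,3-bisphosphoglycerate, the regulator of oxygen release by haemoglobin. Its counts were 1780 to 2053 under vehicle, 2136, 1030, 1327, 813 and 1200 in semaglutide mice 13 to 17, and 2108 to 2557 under semaglutide + ketone ester. The vehicle mean was 1882 for Bpgm and 1558 for Tmcc2, beside 1774 for the 4 globin genes summed. In mouse 16 the counts were 813 and 738, beside 49.5 for the globin sum. The part of Bpgm and Tmcc2 RNA that came from red cells was not tested. Bpgm fell under semaglutide by 0.61 on the log2 scale (standard error 0.19, limma adjusted p = 0.027) and was higher by 0.92 with the ketone ester (standard error 0.21, limma adjusted p = 0.0088). Leaving out vehicle mouse 3 or semaglutide mouse 14, 16 or 17 raised the adjusted p against vehicle to between 0.055 and 0.063 in limma, and edgeR gave an adjusted p of 0.053. Tmcc2 fell by 0.54 (standard error 0.14, limma adjusted p = 0.014) and was higher by 0.50 with the ketone ester (standard error 0.17, limma adjusted p = 0.045), the latter lost in 11 of the 13 fits and with the columns rescaled to equal totals (0.27, adjusted p = 0.14). Bnip3l, Xpo7, Tspan33, Tal1 and Zfpm1 did not pass, and the medians of the 7 genes were -0.14 and 0.01.

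Of 13 tested haem synthesis genes outside Alas2, 5 fell and 1 rose under semaglutide, beside 13.9% and 12.5% of all genes tested, and 3 were higher and none lower with the ketone ester than with semaglutide alone, beside 10.0% and 10.7%. Their medians were -0.16 and 0.24 on the log2 scale. With the columns rescaled to equal totals, which left 985 genes lower and 3351 higher under semaglutide over the whole table, 4 of the 5 falls lost their call and that of Alas1 did not. Alas1, the enzyme that starts haem synthesis outside red cells, had 1855 to 2150 normalized counts under vehicle, 972 to 1303 under semaglutide and 1686 to 2292 under semaglutide + ketone ester. It fell under semaglutide by 0.87 (standard error 0.10, limma adjusted p = 5.9e-05) and was higher by 0.88 with the ketone ester (standard error 0.11, limma adjusted p = 0.00054). The semaglutide range of Alas1 did not overlap either other group, and mouse 13, the highest for Alas2 in its group, had 1303. In limma, Alad, the next enzyme of the pathway, fell by 0.40 (adjusted p = 0.0077), a call lost with equal totals (-0.22, adjusted p = 0.14). Abcb10 and Tmem14c, mitochondrial membrane proteins of haem synthesis, fell by 0.36 and 0.40 (limma adjusted p = 0.012 and 0.021), whereas Abcb6, a porphyrin transporter, rose by 0.29 (limma adjusted p = 0.015). With equal totals the differences were -0.19 for Abcb10 and -0.23 for Tmem14c (limma adjusted p = 0.065 and 0.14), and the Tmem14c call was also lost without vehicle mouse 5 or semaglutide mouse 17 (adjusted p = 0.050 and 0.058, the first just above the threshold). With the ketone ester, Abcb10 was higher by 0.34 than with semaglutide alone (limma adjusted p = 0.037), a call lost in 7 of the 13 fits and with equal totals (0.10, adjusted p = 0.38). Urod, Cpox, Ppox and Fech were among the genes that passed in no comparison.

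Of 14 tested iron and haemoglobin clearance genes, 1 rose and 3 fell under semaglutide, near the share over all genes tested (26.5% in either direction). With the ketone ester 2 were higher and 1 lower than with semaglutide alone, again near that share (20.7%), and the medians were -0.09 and 0.16. Ftl1, the ferritin light chain that stores iron, rose under semaglutide by 0.62 (standard error 0.13, limma adjusted p = 0.0039) and was lower by -0.64 with the ketone ester (standard error 0.15, limma adjusted p = 0.0097). Steap3, a ferrireductase of the transferrin cycle, fell under semaglutide by 0.82 (standard error 0.18, limma adjusted p = 0.0042) and was higher by 0.96 with the ketone ester (standard error 0.20, limma adjusted p = 0.0055). For Steap3, mouse 13, at 480, again lay with the vehicle-treated mice (451 to 557), while the other semaglutide-treated mice had 213 to 304. Ireb2, an iron sensor, and Hmox2, a haem oxygenase, each fell by 0.25 (limma adjusted p = 0.039 and 0.049), calls that were lost in 8 and 11 of the 13 fits and with equal totals (-0.077 and -0.081, adjusted p = 0.49 and 0.47). Blvra, which converts biliverdin from haem to bilirubin, was higher by 0.60 with the ketone ester than with semaglutide alone (limma adjusted p = 0.0082), a call lost with equal totals (0.36, adjusted p = 0.10). Cd163 and Hp, a receptor and a carrier of free haemoglobin, and Hmox1, a haem oxygenase, did not pass, and Hpx, a haem carrier, averaged 2.10 normalized counts and was not tested. Over these lists together, 14 of 41 genes passed between semaglutide and vehicle, beside 26.5% of all genes tested. Between semaglutide + ketone ester and semaglutide 10 passed, beside 20.7%. Without mouse 13 these counts became 20 and 19, while 4612 and 4121 of 12320 genes tested passed. Between semaglutide + ketone ester and vehicle 0 of the 41 tested genes of these lists passed by limma, beside 0.366% of all genes tested, and 0 by edgeR. Of the 41, 2 had an unadjusted p under 0.05 in limma.

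Markers of other blood and vessel cells were set beside the globins. The 10 endothelial markers summed to 5127 to 6326 normalized counts under vehicle, 5377 to 6010 under semaglutide and 5657 to 6698 under semaglutide + ketone ester. In mice 14, 16 and 17, which had little globin RNA, they summed to 5576, 5814 and 6010, within the vehicle range. In limma, 3 of the 10 (Cdh5, Kdr and Emcn) were higher with the ketone ester than with semaglutide alone, beside 10.0% of all genes tested. They were higher by 0.31, 0.41 and 0.51 on the log2 scale (limma adjusted p = 0.034, 0.019 and 0.039). With the columns rescaled to equal totals these calls were lost, at adjusted p of 0.65, 0.34 and 0.19, and leaving out single mice removed them in 5, 2 and 6 of the 13 fits. Against vehicle 0 of the 10 passed in limma or edgeR, with 2 under semaglutide and 1 under semaglutide + ketone ester at an unadjusted p under 0.05. Over all genes tested, 26.5% and 0.366% passed by limma in these 2 comparisons. The medians of the 10 genes were -0.05 for semaglutide minus vehicle and 0.12 for semaglutide + ketone ester minus semaglutide. Platelet and megakaryocyte markers summed to 40.8 to 90.9 under vehicle, 41.0 to 85.1 under semaglutide and 52.9 to 70.1 under semaglutide + ketone ester, with 7 of the 10 genes averaging under 1. The genes that averaged more were Pf4, Itga2b and Ppbp, and most of each sum came from Pf4 and Itga2b. Pf4, platelet factor 4, had 37.2, 36.9 and 28.3 in mice 14, 16 and 17 against 27.5 to 57.7 under vehicle. Itga2b had 21.4, 28.2 and 11.9 in these mice against 4.95 to 26.6. Ppbp, near the floor, had 1.13, 0.971 and 0 against 1.16 to 3.61. Its group means of 2.80, 0.806 and 3.23 had the order of the globins, whereas those of Itga2b (14.3, 18.3 and 10.5) had the opposite order. Neither the endothelial nor the platelet sums followed the globin values of these mice.

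The leukocyte lists set mouse 16 apart. Neutrophil markers, none of which reached the filter, summed to 1.14 to 24.7 under vehicle, 22.2 to 56.3 under semaglutide and 12.0 to 19.3 under semaglutide + ketone ester. Lymphocyte markers, none tested either, summed to 1.14 to 17.5, 4.44 to 127 and 7.21 to 13.3. Monocyte and macrophage markers summed to 641 to 1876, 741 to 2352 and 877 to 1716, and pan-leukocyte markers to 117 to 298, 140 to 767 and 142 to 252. Adipocyte markers summed to 388 to 2485, 54.1 to 9005 and 686 to 1212. In each of these lists mouse 16 held the highest semaglutide value, while mouse 14, with as little globin RNA, held the lowest adipocyte sum, 54.1. Of 22 tested genes of the monocyte and macrophage, pan-leukocyte, platelet and adipocyte lists, 0 passed in any comparison by limma or edgeR, and 1 had an unadjusted p under 0.05, between semaglutide and vehicle. Over all genes tested, limma called 26.5% between semaglutide and vehicle, 20.7% between semaglutide + ketone ester and semaglutide, and 0.366% between semaglutide + ketone ester and vehicle. The medians of those lists for semaglutide minus vehicle were -0.19, 0.22, 0.14 and -0.61. Of 10 skeletal muscle markers, 1 rose (Des, by 0.46 on the log2 scale, limma adjusted p = 0.021) and 1 fell (Pvalb, by 1.36, limma adjusted p = 0.0050) under semaglutide. Over all genes tested, 12.5% rose and 13.9% fell by limma. With the ketone ester, 4 markers were higher (Acta1, Myh4, Tnni2 and Pvalb) and 1 lower (Des) than with semaglutide alone, beside 10.0% and 10.7%. Of these calls, that of Tnni2 was lost in 9 of the 13 fits and with equal totals (adjusted p = 0.071), that of Myh4 without mouse 14, 17, 21 or 22, and those of Acta1 and Des without mouse 21 or 22. With no filter on low values the calls of Acta1, Myh4, Tnni2 and Des were lost (limma adjusted p = 0.26, 0.40, 0.19 and 0.084), as was that of Des between semaglutide and vehicle (0.082), which 3 of the 13 fits also lost. The part that any of these cells, muscle fibre type or tissue handling had in the globin values was not tested.

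**Figure D4:**
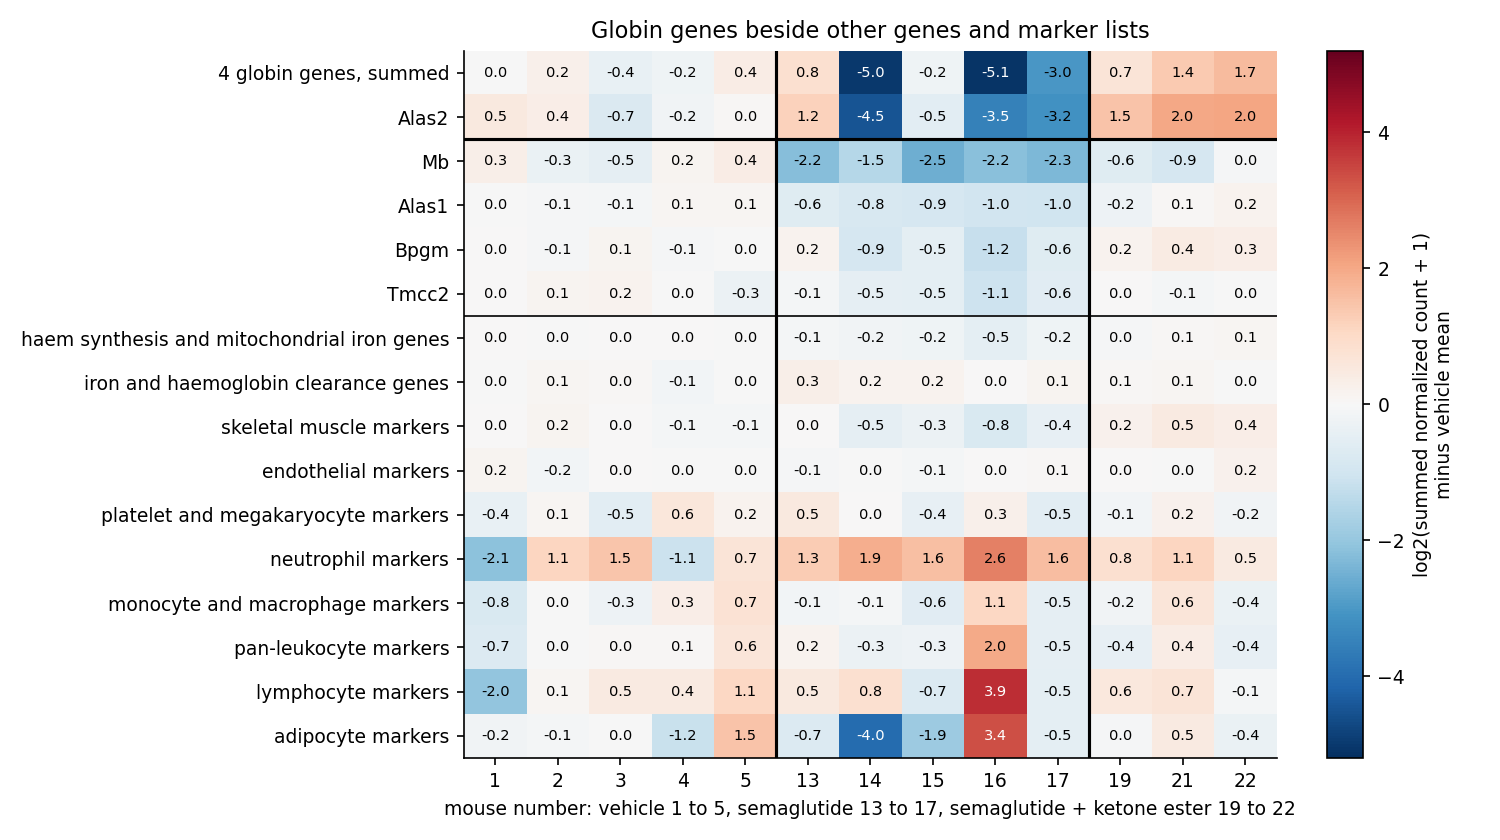
Log2(summed normalized count + 1) minus the vehicle mean, per mouse, for the summed globin genes, for Alas2 and 4 other genes, and for lists of haem, iron and cell type markers; blue is below and red above vehicle. The globin rows are dark blue in mice 14, 16 and 17 (-5.01, -5.11 and -3.04 for the sum), the endothelial and platelet rows are not, and Mb and Alas1 are below vehicle in all 5 semaglutide-treated mice.

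Genes whose pattern over the 13 mice was most like that of the globins were ranked by Pearson's r with the mean log2 value of the 4 globin genes, among 12298 genes that are not members. Alas2 (r = 0.963) was next to the globins, closely followed by Slc8a3 (0.962). The 10 highest were Slc8a3, Gmpr (0.95), Bpgm (0.94), Tst (0.94), Ldha (0.94), Tmod1 (0.93), Klhdc2 (0.93), Prkab2 (0.93), Myh4 (0.93) and Tnnc2 (0.93), and 37 genes (0.301%) exceeded 0.9. Among them, Myh4 encodes the myosin heavy chain of fast IIb fibres, Tnnc2 the troponin C of fast fibres, Ldha a lactate dehydrogenase chain, and Slc8a3 a sodium/calcium exchanger. Their amplitude was far smaller. Tnnc2 had 116152 to 128807 normalized counts under vehicle, 126392, 81058, 91099, 52072 and 77286 in semaglutide mice 13 to 17, and 134190 to 162376 under semaglutide + ketone ester. Slc8a3 had 702, 628 and 862 in mice 14, 16 and 17 and 1186 and 1174 in mice 13 and 15, against 991 to 1263 under vehicle.

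These likenesses rest largely on mice 14, 16 and 17, which stand as a cluster of their own. Without mice 14 and 16, r was 0.84 for Slc8a3, 0.86 for Bpgm and 0.90 for Tnnc2 (n = 11), while in the 8 vehicle and ketone ester mice it was 0.57, 0.82 and 0.95. For Prkab2 it went from 0.70 (n = 11) to 0.02 in those 8 mice. After each group mean was subtracted, the 10 highest were Fan1, Slc8a3, Klhdc2, Carns1, Ccdc58, 0610010F05Rik, Ehbp1, Cyb561d1, Scn4b and Gm5105, of which 2 were among the 10 named above. Leaving out a mouse kept between 3 and 10 of the 10. Alas2 had an r of 0.94 after group means were subtracted, a value to which the scattered semaglutide group adds most of the spread.

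**Figure D5:**
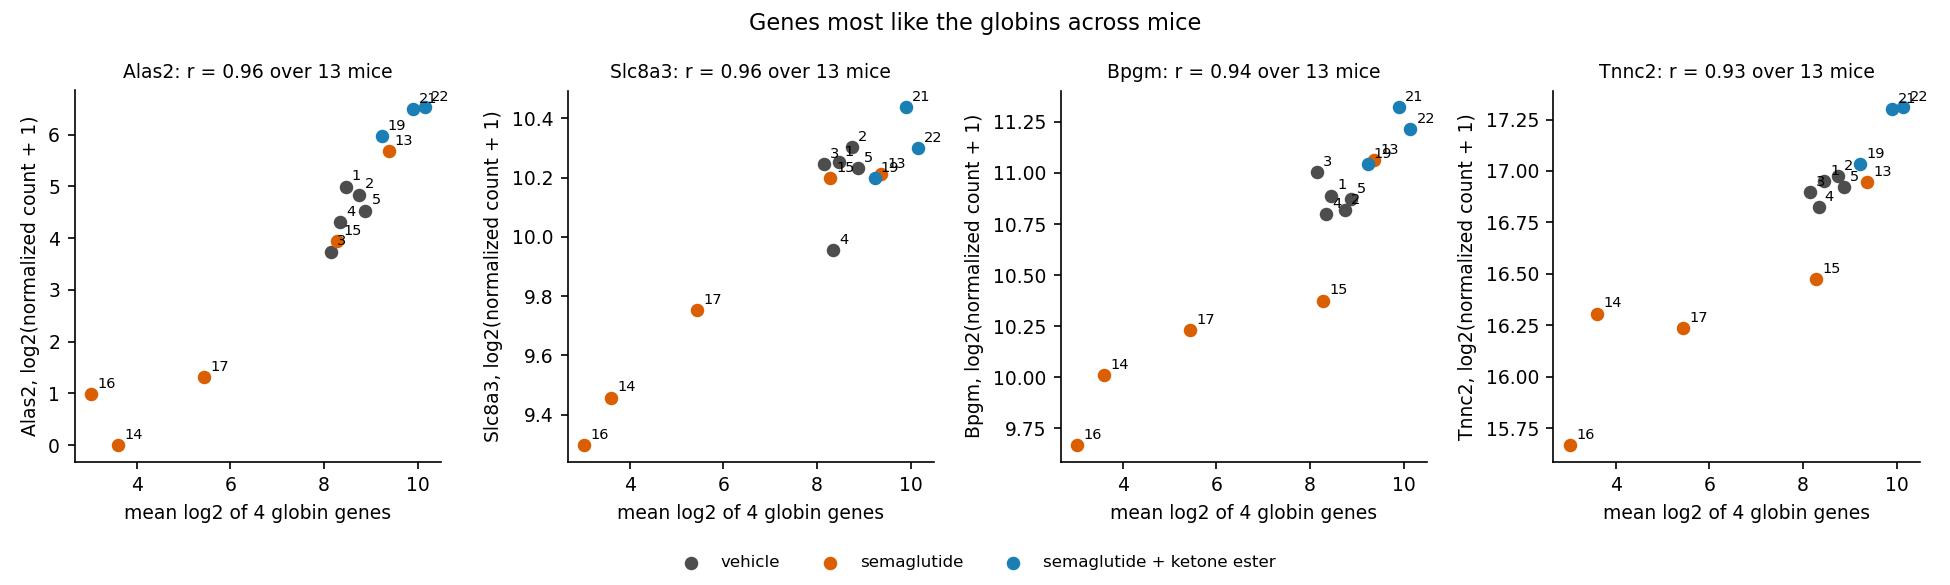
Log2(normalized count + 1) of Alas2, Slc8a3, Bpgm and Tnnc2 against the mean log2 value of the 4 globin genes; each point is a mouse with its number, coloured by group. Mice 14, 16 and 17 form a separate low cluster. In the 8 vehicle and ketone ester mice, r is 0.94 for Alas2 and 0.57 for Slc8a3, values that include the gap in globin level between these groups.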

How the data were processed

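Gastrocnemius RNA of 13 mice was sequenced from stranded mRNA libraries (paired reads of 59 bases). Per the labels, the submitters' processing notes name DRAGEN, DESeq2 and the mm10 build, with no versions, and the counting annotation was not given in the sources used here. The authors deposited normalized counts per gene, a signal with 1 column per mouse. Each value is a whole multiple of a step per column, and reads recovered as value/step were whole within 0.01 for 100% of values.

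Differences were fitted with limma 3.58.1 (R 4.3.3; trended eBayes) on log2(normalized count + 1), for 12303 of 21868 genes with a mean of at least 10, with means for 3 groups. Benjamini-Hochberg adjustment covered all genes tested, with a threshold of 0.05. Members have no test of group differences. edgeR 4.0.16 quasi-likelihood on recovered reads, other pseudocounts, filters and scalings, sample weights and leaving out each mouse were the alternatives. The fit was tested on simulated data.

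The members and gene lists were chosen with earlier results of these data known. Named genes were the 5 members, listed genes that passed (up to 10 a list), the detected red cell genes, and the 10 genes with the highest r with the globins, before and after subtracting group means. Of 21868 symbols, 21689 matched GENCODE M21, used for coordinates; upstream sequences are from RefSeq. Shares have Wilson or exact intervals, and ratios of reads have exact intervals. Some listed genes enter the counts of their lists and are not reported here by name.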

Additional observations from a re-analysis of the deposited data

Results flagged for a closer look

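Dixon's test for a value far from the others of its group was applied to 44 groups of 5 mice and marked 8. Chance marks about 1 in 20 such groups. The members were chosen from their levels per mouse, so marks on them, or the lack of marks, are a description and nothing is read from them. In the semaglutide group the marks included Alas2 of mouse 13, at 50.3 normalized counts. In mouse 16, Hbb-bs took 100% of beta globin reads, from 26 reads. In mouse 14, the other globin genes, nearly all Mb, summed to 14152 normalized counts, above the other semaglutide-treated mice. Mouse 16 stood above its group in 4 marker sums, with 127 normalized counts for lymphocyte markers, 2352 for monocyte and macrophage markers, 767 for pan-leukocyte markers and 9005 for adipocyte markers. Among vehicle-treated mice, mouse 5 had a high adipocyte marker sum of 2485. The globin genes themselves were not marked in either group.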

How the results depend on the processing

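No paired analysis was possible because each mouse carries a number of its own. The mean log2 difference of the 4 globin genes kept its direction under every alternative run in all 3 comparisons, but its size between semaglutide and vehicle went from -2.56 to -0.84 with edgeR on recovered reads and with the ratio of group means, and to -2.10 with a pseudocount of 10. For the ketone ester group against semaglutide alone, the 3.81 became 2.13 with edgeR and 2.11 with the ratio of group means. Leaving out each mouse gave -3.42 to -1.84, 3.08 to 4.67, and 1.05 to 1.51 for semaglutide + ketone ester minus vehicle. Genes called between semaglutide and vehicle numbered 3255, and 4986 with sample weights. Leaving out each mouse gave 2379 to 4612. For semaglutide + ketone ester against semaglutide the 2546 became 4352 with equal totals (637 higher and 3715 lower, with the median of all genes at -0.24), 4436 with sample weights, and 1150 to 4121 without a mouse. Against vehicle the 45 became 318 with sample weights and 4 to 132 without a mouse. With equal totals, genes higher and lower under semaglutide than vehicle numbered 3351 and 985, with the median of all genes at 0.17, while the globin difference was -2.41. Listed red cell, haem and iron genes called went from 10 to 19 with sample weights for semaglutide + ketone ester against semaglutide. Leaving out each mouse gave 7 to 19 there and 10 to 20 for semaglutide against vehicle. Of the 10 genes most like the globins, 2 remained after group means were subtracted, and 3 to 10 without a mouse. No log2 difference between groups reversed. The level of alpha against beta globin changed sign in some mice with the measure. In vehicle mouse 1 the ratio of summed reads was 0.963, with alpha below beta. The mean log2 value of its alpha genes was above that of its beta genes by 0.421. In vehicle mouse 3 both measures placed alpha above beta, at 1.04 and 0.465. The causes were not tested. The low depth of Alas2 and Hbb-bt in mice 14, 16 and 17 limits their ratios.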
